A study of Caenorhabditis elegans with 2 samples.

Results

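W03F9.2 and its nearest neighbours W03F9.1, sftb-2, cgp-1 and picd-1 are 5 of the 19985 protein-coding genes annotated in Caenorhabditis elegans. They were chosen by their place in a 28-kb region at the left end of chromosome V and from the peak values of this series, so everything given here for the region is a description and carries no test. The series is ChIP-seq of an eGFP fusion of W03F9.2 in whole worms of strain OP215, with 2 biological replicates in 1 group. Per the labels, the worms were L4 larvae and young adults, males and females pooled, and the strain carries the unc-119(ed3) allele on chromosome III and the integrated transgene wgIs215, an insertion that targets W03F9.2. The label of the antibody names W03F9.2 while the description names eGFP, and the promoter, the tissue of expression, the copy number and the extent of the transgene were not stated in the labels. A control library is mentioned by the labels, and its own signal was not analysed here. In a strain with added copies of a gene, more DNA template from that gene and more binding at it cannot be told apart from these lists, and this applies to every signal at the locus below.

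In ChIP-seq, chromatin bound by a protein is precipitated and its DNA is sequenced, so that places where the protein sits give peaks of signal. The annotation gives W03F9.2 a domain of the C2H2 type, that of the zinc finger proteins, many of which bind DNA and regulate transcription. Genes of C. elegans are short and closely packed, and a single intergenic stretch often holds the starts of genes on both strands.

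On WBcel235, the assembly that ce11 denotes, the genes follow each other from left to right. The gene picd-1 (WBGene00018975) lies at chrV:104825-118205 on the plus strand and is annotated as an interactor of the Axin protein PRY-1 with a CABIN1 domain. The next gene, cgp-1 (WBGene00000480), lies at chrV:118202-122789 on the minus strand and is annotated as a GTP-binding protein. Farther right, W03F9.1 (WBGene00020999) lies at chrV:124010-126718 on the minus strand and is annotated as a homolog of the zinc finger protein ZPR1. W03F9.2 itself (WBGene00021000) lies at chrV:127000-128034, also on the minus strand. The last, sftb-2 (WBGene00021004), lies at chrV:128237-131671 on the plus strand and encodes a protein of the SF3b complex, which acts in pre-mRNA splicing. W03F9.2 and sftb-2 are transcribed away from each other and are 202 bp apart, W03F9.1 and W03F9.2 are 281 bp apart, cgp-1 and W03F9.1 are 1220 bp apart, and the ends of picd-1 and cgp-1 overlap.

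The sequences of the 5 peaks whose summits lie before the start of a member are shown because they have the highest signals of the region. They were read from the RefSeq genome of WBcel235, on the plus strand from 5′ to 3′, and are the parts of the peaks outside annotated genes, cut to 100 bases either side of the summit for the cgp-1 start. Capitals mark words that recur among peaks of the series and are described further on.
picd-1 start, chrV:104607-104773: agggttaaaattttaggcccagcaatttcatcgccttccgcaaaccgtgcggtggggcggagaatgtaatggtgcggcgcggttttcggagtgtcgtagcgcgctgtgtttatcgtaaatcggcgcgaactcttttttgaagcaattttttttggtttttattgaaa
cgp-1 start, chrV:122870-123070: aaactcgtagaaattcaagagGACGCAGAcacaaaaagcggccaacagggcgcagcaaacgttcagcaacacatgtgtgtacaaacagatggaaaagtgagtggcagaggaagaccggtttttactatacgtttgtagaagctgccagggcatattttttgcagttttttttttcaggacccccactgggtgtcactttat
cgp-1 and W03F9.1 gap, chrV:123600-123898: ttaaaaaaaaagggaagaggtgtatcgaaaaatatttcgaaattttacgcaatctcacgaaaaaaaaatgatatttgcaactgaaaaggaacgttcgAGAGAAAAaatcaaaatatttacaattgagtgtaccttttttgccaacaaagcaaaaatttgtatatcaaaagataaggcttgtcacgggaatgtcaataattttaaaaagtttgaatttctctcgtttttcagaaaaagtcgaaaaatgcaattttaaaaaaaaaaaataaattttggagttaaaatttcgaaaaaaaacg
W03F9.1 start, chrV:126719-126901: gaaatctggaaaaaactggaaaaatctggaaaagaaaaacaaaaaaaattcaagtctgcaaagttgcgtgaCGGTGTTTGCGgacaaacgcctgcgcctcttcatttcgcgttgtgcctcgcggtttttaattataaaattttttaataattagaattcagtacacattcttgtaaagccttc
W03F9.2 and sftb-2 starts, chrV:128035-128173: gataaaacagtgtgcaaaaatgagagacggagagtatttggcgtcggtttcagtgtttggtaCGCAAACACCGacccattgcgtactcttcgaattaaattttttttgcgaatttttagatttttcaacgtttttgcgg

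Each of the 5 genes had a peak of the authors' optimal set at its start, that is, with the summit no more than 1000 bp before or 200 bp after that start. Over all protein-coding genes this held for 2331 of 19985, or 11.7%, and nothing is read from the difference because the genes were chosen with it known. The 5 genes did not have 5 separate peaks. W03F9.2 and sftb-2 shared 1 summit between them, and the summit at picd-1 also lay in the start window of rps-27, a ribosomal protein gene on its other side. Between their annotated limits, picd-1 held 2 optimal-set summits, W03F9.1 held 1, and cgp-1, W03F9.2 and sftb-2 held 0, where 2.51% of all protein-coding genes held any.

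The signal of a peak is the authors' own value, in units of their peak caller, and ranks run from the highest signal down within each list. The optimal set had 9 summits in the region. In the nuclear genome the optimal set held 2389 peaks with a median signal of 69.4, and the 9 peaks ranged from 51.4 to 399 with a median of 148. The highest lay at the start of W03F9.1, the next at the start of picd-1, and the third between W03F9.2 and sftb-2.

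The W03F9.1 start peak, at chrV:126642-126901, had a signal of 153 in replicate 1, 259 in replicate 2 and 399 in the pooled list. It ranked 25, 28 and 24 in these lists. Its summit lay at position -59 relative to the W03F9.1 start and 223 bp past the end of W03F9.2, in the short stretch between these genes. It was the highest entry of the region in all 3 lists.

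At the start of W03F9.2 itself, the peak at chrV:128022-128173 had a signal of 60.6 in replicate 1, 118 in replicate 2 and 174 in the pooled list. It ranked 211, 111 and 135. Its summit was at position -63 relative to the W03F9.2 start and at -140 relative to the sftb-2 start, so the lists do not tell for which of these genes it should be counted. This peak had the highest log2 ratio of replicate 2 to replicate 1 of the 9, at 0.96. Other nuclear peaks had a median of 0.66.

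The picd-1 start peak, at chrV:104607-104773, had a signal of 87.8 in replicate 1, 122 in replicate 2 and 198 in the pooled list. Its ranks were 71, 102 and 92. The summit lay at -146 relative to the picd-1 start and at -602 relative to the start of rps-27. It stood alone: the nearest optimal-set peak to its right was at the far end of picd-1.

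Upstream of cgp-1 there were a pair of peaks. That at chrV:122795-123144 had a signal of 59.5 in replicate 1, 87.9 in replicate 2 and 148 in the pooled list, with its summit at -181 relative to the cgp-1 start. The other, at chrV:123600-123898, had 85.3, 89.2 and 162 in the same order, with its summit at -924. That summit was also 297 bp past the end of W03F9.1. Its log2 ratio of replicate 2 to replicate 1 was 0.07, where other nuclear peaks had a median of 0.66. It ranked 77 in replicate 1, 244 in replicate 2 and 163 in the pooled list, and the first of the pair ranked 226, 252 and 215.

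Peaks at gene ends and in an intron were lower. The peak at chrV:123884-124010 had its summit 68 bp past the end of W03F9.1. Its signal was 50.7 in replicate 1, 43.3 in replicate 2 and 64.7 in the pooled list. It was the only 1 of the 9 that was higher in replicate 1 (log2 ratio -0.23). The replicate 2 entry matched to it had its summit at 124127, outside this peak. That summit was nearer to a pooled entry below the threshold, with its summit at 124153. The peak at chrV:125781-126130, in an intron of W03F9.1 at 762 bp from its start, had 32.5, 43.1 and 75.3. At the overlapping ends of picd-1 and cgp-1, the peaks at chrV:117790-118139 and chrV:117989-118338 had pooled signals of 56.4 and 51.4. These overlap each other and matched the same entry in each replicate, of 29.8 in replicate 1 and 37.5 in replicate 2, so they are not independent of each other. They are also the members just inside the threshold, since the lowest signal of the optimal set was 48.5. Just outside it were 2 intron entries of picd-1, with pooled signals of 47.0 and 46.9.

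**Figure D1:**
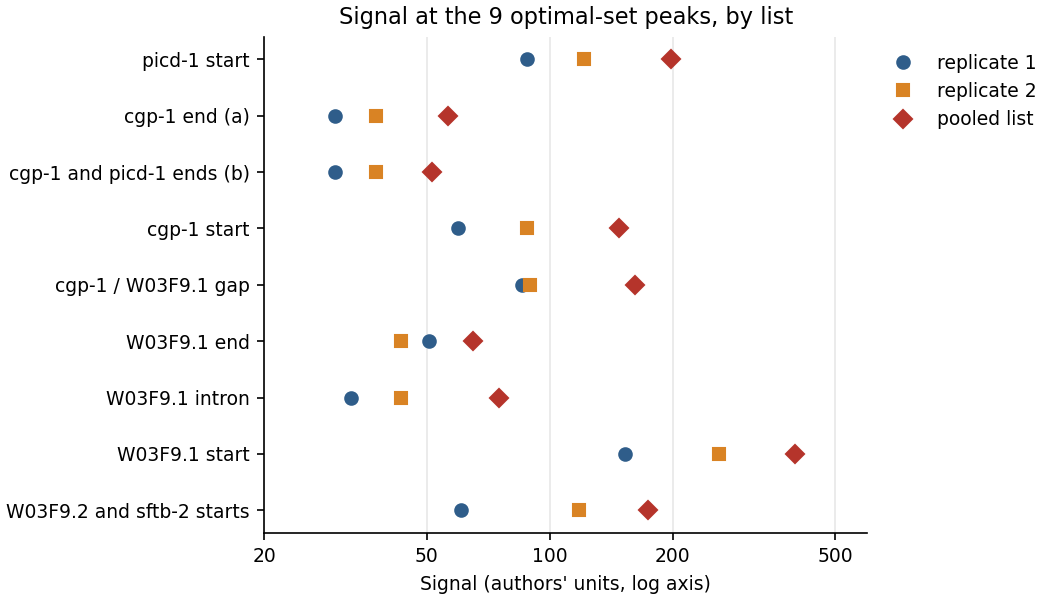
Signal of the 9 optimal-set peaks of the region on a log axis, with 1 row a peak from left to right on the chromosome, circles for replicate 1, squares for replicate 2 and diamonds for the pooled list. The W03F9.1 start is highest in all 3 lists (153, 259 and 399). Only the peak at the W03F9.1 end is lower in replicate 2 than in replicate 1, and its matched replicate 2 entry has its summit outside the peak.

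Across the 9 peaks the log2 ratio of replicate 2 to replicate 1 had a median of 0.41 with an SD of 0.35, over a range of -0.23 to 0.96. At the 2349 other nuclear optimal-set peaks with an entry in both replicates it had a median of 0.66 with an SD of 0.65. Both SDs are over single peaks and do not measure the spread of a median of 9, so the difference of the medians was not judged. All 9 were matched by an entry among the top entries of both replicates, taking as many of the highest-signal entries as the optimal set holds, against 63.1% of the other matched peaks. The overlapping peaks at the ends of picd-1 and cgp-1 count here through the same entry in each replicate. Replicate 1 had a further entry there, with its summit at 118125 and a signal of 17.6, which ranked 3668 and was not among the top entries. The optimal set was itself drawn from both replicates together, so the agreement of the replicates is not independent of it. Summits of the matched entries were a median of 57 bp apart between the replicates, against a median of 30 bp elsewhere. The largest distance, 237 bp, was between the shared entries at the ends of picd-1 and cgp-1. Their summits lay at 117921 in replicate 1 and 118158 in replicate 2. The lower replicate 1 entry at 118125 lay closer to the latter, so the 237 bp follows from taking the strongest overlapping entry.

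By gene part, 5 of the 9 summits were at gene starts, 3 at gene ends and 1 in an intron, with none in an exon or outside these classes. A gene end here runs from 200 bp before to 500 bp past the annotated end, and was used only where no gene start applied. Of the 2380 other nuclear peaks, 69.7% were at gene starts, 5.25% at gene ends, 12.0% in introns and 12.2% in none of the classes. The exact 95% binomial interval of the region's share at gene ends, 33.3%, ran from 7.49% to 70.1%. It covers counting error over 9 peaks alone, of which 2 overlap. The number at gene ends was 4 with a narrower start window and 2 with a wider one. The region was drawn around its peaks, so nothing is read from this share. The 1658 gene-start summits elsewhere lay at a median position of -196 relative to the nearest start. Those of W03F9.1 and W03F9.2 lay at -59 and -63, that of picd-1 at -146 and those of cgp-1 at -181 and -924.

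Peaks of the region were often narrow. The peak caller gave a width of 350 bp to most peaks, and 5 of the 9 were narrower, from 127 to 299 bp, against 275 of all 2389 nuclear peaks (11.5%). The narrow peaks were those at the starts of picd-1, W03F9.1 and W03F9.2, the one at -924 from cgp-1 and the one at the end of W03F9.1. In the replicates, the W03F9.1 start peak was narrow in both, at 198 and 205 bp, and so was the peak at -924, at 111 and 136 bp. The picd-1 and W03F9.2 start peaks were narrow in replicate 2 alone, at 93 and 109 bp. These and the W03F9.1 end peak were 364 bp wide in replicate 1, and the last was 336 bp wide in replicate 2, which are the median widths of the region in those lists.

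The longer lists hold 30000 entries each, of peaks together with background, and show the members beyond the threshold. In the region the pooled list had 32 entries, that of replicate 1 had 33 and that of replicate 2 had 30. Of the 32 pooled entries, 6 were at gene starts, 6 at gene ends, 1 in an exon and 19 in introns. Elsewhere 34.2% of pooled nuclear entries were in introns, and 59.4% in the region (exact 95% interval 40.6% to 76.3%). The region was drawn around the members, and the share of its bases in introns was not measured, so nothing is read from this difference.

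Within picd-1, the longest member at 13381 bp, 13 pooled entries had their summits between the gene limits. Their signal ran from 10.1 to 56.4 with a median of 30.8, and they were spread from 106164 to 118164 along the gene. Replicate 1 had 15 such entries, from 5.41 to 29.8, and replicate 2 had 11, from 7.84 to 37.5. The highest intron entries, at 117069 and 112064 in the pooled list, each had an entry close by in both replicates. Within cgp-1, 6 pooled entries ran from 17.6 to 35.7, with 5 in replicate 1 and 7 in replicate 2. W03F9.1 held 3, of 35.9, 36.7 and 75.3, with 2 in replicate 1 and 3 in replicate 2.

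Between its limits W03F9.2 held 1 pooled entry, at 127517 with a signal of 24.4, and 1 entry in each replicate, of 11.2 in replicate 1 and 8.77 in replicate 2. That entry lay also in the start windows of W03F9.1 and sftb-2. In sftb-2 there were 2 pooled entries, of 17.0 and 15.1, both in introns, and a further one of 35.6 just past its end. The entry within W03F9.2 was thus far lower than the peaks on either side of the gene, 399 past its end and 174 before its start.

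**Figure D2:**
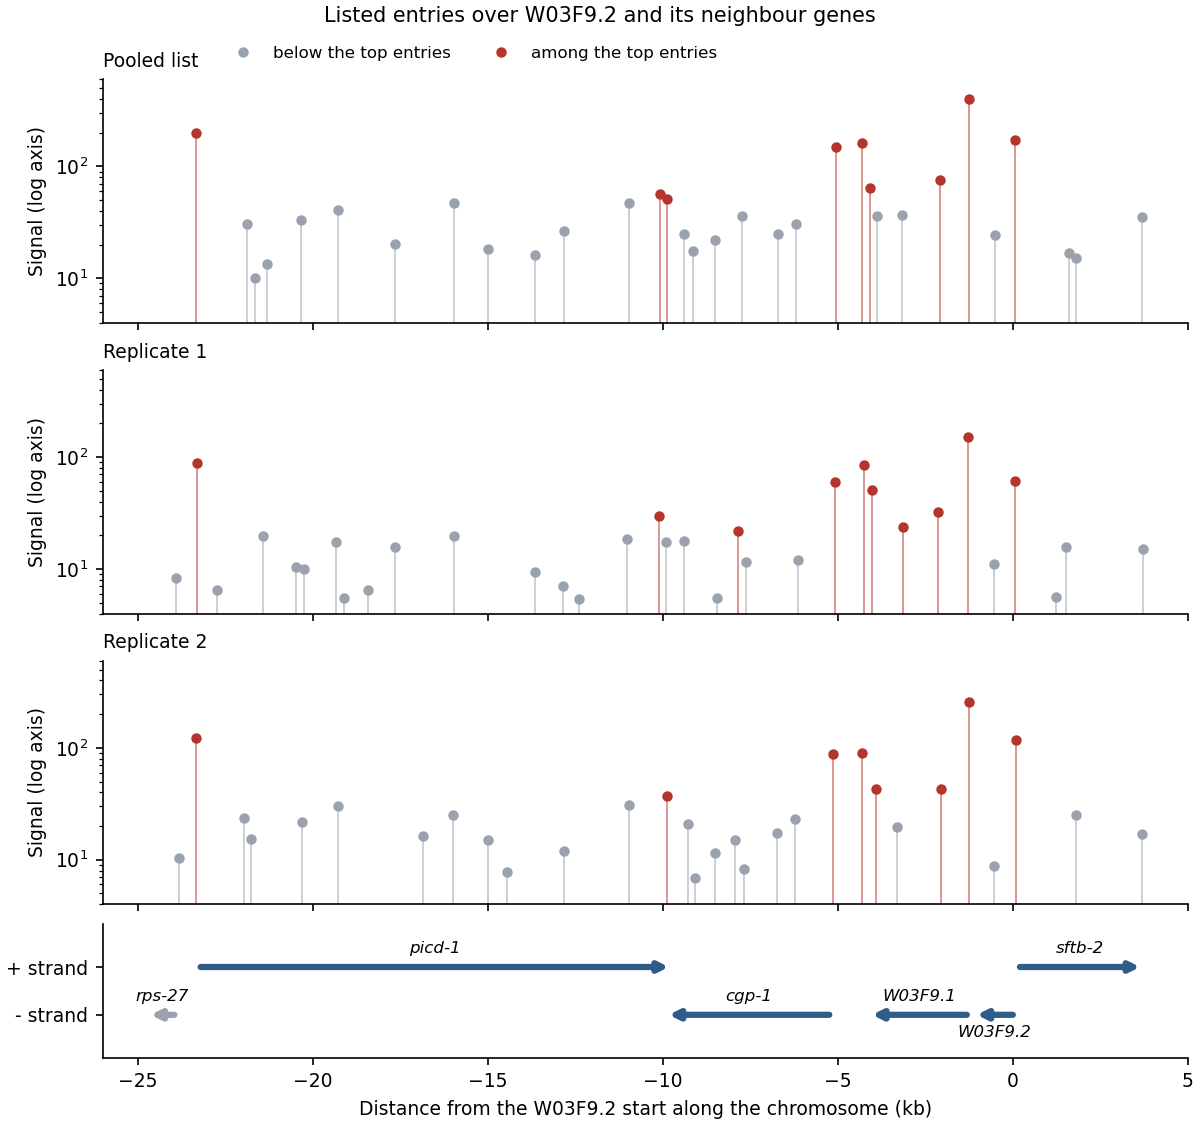
Signal of every listed entry of the region on a log axis, by distance from the W03F9.2 start, in the pooled list and each replicate, with the genes drawn as arrows below (members dark, rps-27 grey). Red points are among the top entries of their list and grey points are below them, and the red points gather between the ends of picd-1 and the start of sftb-2, apart from that at the picd-1 start.

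Per kb of gene, pooled entries numbered 0.97 in picd-1, 1.31 in cgp-1, 1.11 in W03F9.1, 0.97 in W03F9.2 and 0.58 in sftb-2. Over all protein-coding genes 66.5% had none, and the upper quartile was 0.34 per kb. At least the density of cgp-1 was found in 2.30% of genes, of W03F9.1 in 3.82%, of picd-1 in 5.21%, of W03F9.2 in 5.25% and of sftb-2 in 14.1%. In a short gene a single entry gives a high density, so W03F9.2 with 1 entry and picd-1 with 13 are not alike in this measure. Among the 799 other genes from 10 to 20 kb long, 18 were at least as dense as picd-1, and among the 4036 other genes from 3 to 6 kb, 33 were at least as dense as cgp-1.

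**Figure D3:**
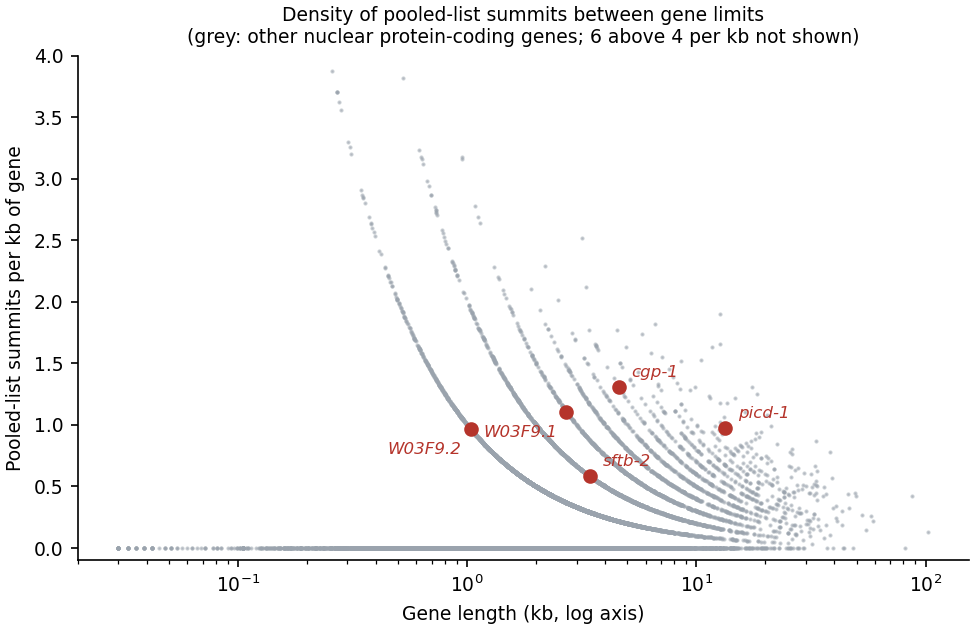
Pooled-list summits per kb of gene against gene length on a log axis, with the 5 members in red and other nuclear protein-coding genes in grey. The curved bands are genes with the same whole number of summits, and cgp-1 (1.31 per kb) and picd-1 (0.97 per kb) lie near the upper edge for their lengths.

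The 23 pooled entries of the region below the threshold had a median signal of 24.8, from 10.1 to 47.0. The 27568 other nuclear entries below the threshold had a median of 15.3, and 20 of the 23 lay above it. The upper quartile of those entries was 21.0, and 15 of the 23 lay above that. Entries below the threshold were thus mostly higher in the region than elsewhere.

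To place the region in the genome, the nuclear chromosomes were divided into 3586 tiles of its length. With 9 optimal-set summits it held more than any other tile, of which the next held 7, and most tiles held 0. No window of that length elsewhere, wherever it began, held more than 7. In the pooled list 3 other tiles had as many entries as the region's 32, against a median of 8. The summed pooled signal was 1953 in the region against a median of 168, and 2 other tiles had more. In replicate 1, 0 tiles had as many as its 33 entries, and in replicate 2, 3 tiles had as many as its 30. Windows of that length placed anywhere else held up to 40 entries in the pooled list, 36 in replicate 1 and 38 in replicate 2, so in these longer lists another window held more than the region. The region's limits were drawn after its peaks were seen, so its place in this order is fixed in part by that choice.

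**Figure D4:**
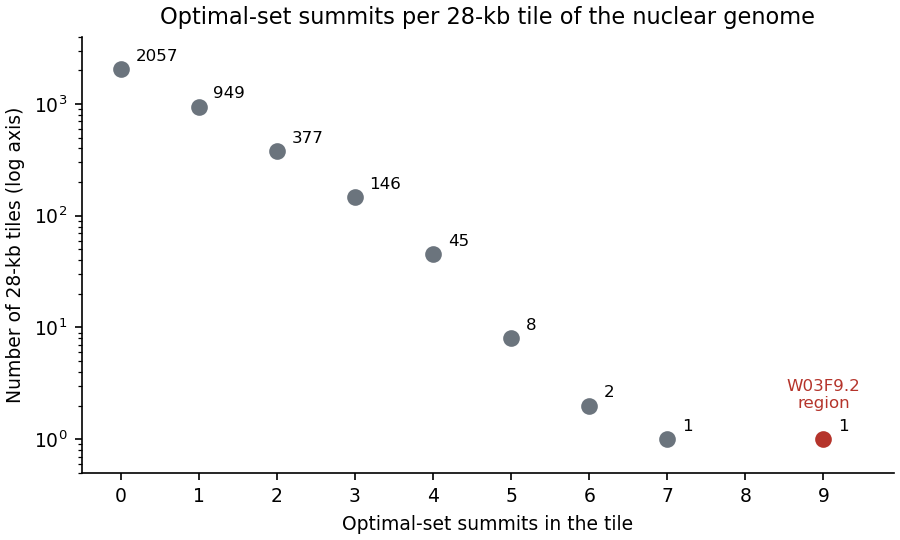
Number of nuclear 28-kb tiles, on a log axis, that hold each number of optimal-set summits, with the count written at each point. The tile of W03F9.2 is the only one with 9, and 2057 tiles hold 0.

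Signal fell off on both sides of the members. The tile to the left of the region held 8 pooled entries with a median signal of 13.6 and the tile to the right held 14 with a median of 14.5, against 34.5 in the region, and neither held an optimal-set peak. To the right, the genes W03F9.11, W03F9.9, srh-82 and W03F9.4 are the other annotated protein-coding genes within 20 kb of the region, and none had an optimal-set summit at its start or between its limits. Their pooled entries between the limits numbered 1, 0, 1 and 1, with signals of 15.0, 12.4 and 14.1 for the genes that had them. To the left, rps-27 shared the picd-1 start peak. Within its limits it had no entry in the pooled list or replicate 1, and 1 of 20.7 in replicate 2. Per 4-kb bin counted from the W03F9.2 start, the summed pooled signal was 572 in the bin just left of it, 466 in the next and 219 in the one after. On its right it was 241 in the first bin, 82.5 in the second and 25.6 in the third. Replicate 1 gave 220 and 241 for the first bins on the left, and replicate 2 gave 374 and 241. The bin with the picd-1 start peak rose again to 286 in the pooled list, 143 in replicate 1 and 193 in replicate 2.

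**Figure D5:**
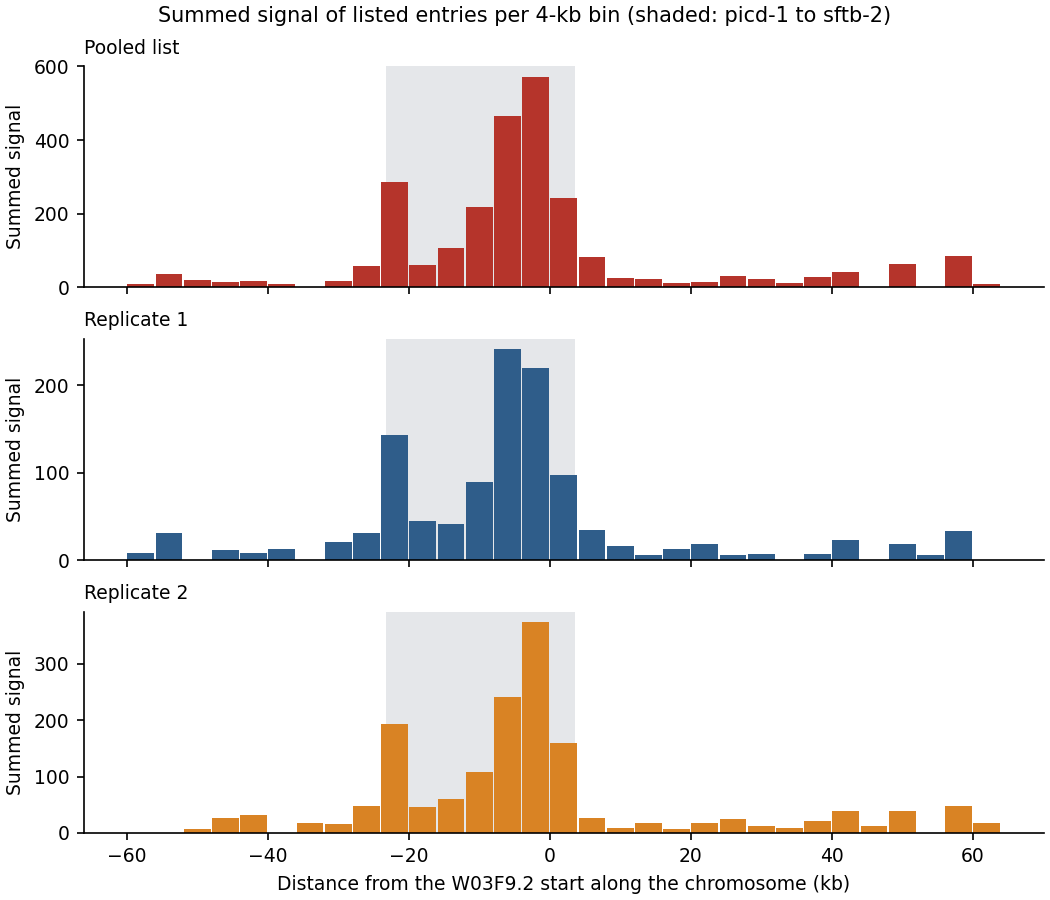
Summed signal of listed entries per 4-kb bin against distance from the W03F9.2 start, in the pooled list and each replicate, with the span from picd-1 to sftb-2 shaded. In all 3 lists the tall bins are the ones close to W03F9.2 and the one at the picd-1 start, and bins wholly outside the shading reach at most 85.9 in the pooled list.

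The edges of the dense entries were set against the gene limits. Joining optimal-set peaks no more than 1000 bp apart, the block with the most peaks had 3 and ran from 122795 to 124010. It is 1216 bp long, 62.6% of it covered by peaks. It began 6 bp before the start of cgp-1 in that gene's own direction and ended on the last base of W03F9.1, so it took up the intergenic stretch between these genes and entered neither by more than that base. Joining peaks up to 2000 bp apart gave 6 peaks from 122795 to 128173, 5379 bp, with the right edge at -64 bp from the sftb-2 start. With all pooled entries, a choice made after seeing the data, a block of 18 entries ran from 116894 to 128173, 11280 bp, from inside picd-1 to the same right edge. The top entries of replicate 1 gave 6 entries from 122775 to 126881 and those of replicate 2 gave 3 from 122741 to 124294. With gaps of 1000 or 2000 bp, the left edge lay within 48 bp of the cgp-1 start. This held in the optimal set and in the top entries of each replicate. The entry at that edge was 350 bp wide in the optimal set, 364 bp in replicate 1 and 336 bp in replicate 2. These are the usual widths in those lists, so the place of the edge follows from the summit and that width. The right edge moved between lists at 1000 bp. At 2000 bp it lay at -64 bp from the sftb-2 start in the optimal set, 48 bp in replicate 1 and -69 bp in replicate 2. With a largest gap of 500 bp the optimal-set block was the same, but the blocks of the top entries began at 123723 in replicate 1 and 123622 in replicate 2, nearest to the end of W03F9.1.

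The ce10 lists gave the region in the same coordinates. All 9 optimal-set peaks, all 32 pooled entries and all 30 entries of replicate 2 had the same positions in ce10 and ce11, with signals that differed by at most 0.00132. The list of replicate 1 differed, since 0 of its 33 ce11 entries had the same position in ce10, which listed 32. There, 30 of the 33 had a ce10 summit within 50 bp, and the median width was 364 bp in ce11 and 356 bp in ce10. The W03F9.1 start peak, highest of the region in replicate 1, had 153 in ce11 and 151 in ce10. The block of 3 optimal-set peaks was the same in ce10, 1216 bp, and in the top entries of replicate 1 the block was 4107 bp in ce11 and 4093 bp in ce10. With all entries of replicate 1 the builds gave different places, 11 entries from 121711 to 129733 (8023 bp) in ce11 and 13 entries from 102086 to 110556 (8471 bp) in ce10. The ce10 optimal set was larger, with 2449 peaks, and its lowest signal was 48.0.

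The peaks at the starts of W03F9.1 and W03F9.2 shared a word of 11 letters, CGCAAACACCG, which was the longest that these peaks had in common on either strand. It lay 18 bp from the summit at W03F9.1 and 5 bp from that at W03F9.2, at -77 and -68 relative to the gene starts. It was on the gene's own strand at W03F9.1 and on the other strand at W03F9.2. In 151-bp windows centred on the summits, on both strands, it occurred at 44 of the 2380 other nuclear peaks (1.85%). In windows 500 bp to either side of all nuclear summits it occurred in 1 of 4778 (0.0209%), and in windows centred 100 bp upstream of each nuclear protein-coding start in 59 of 19973 (0.295%). The nuclear genome holds 887 copies of it. The peaks elsewhere that held it anywhere had a median signal of 75.1, and those without it a median of 69.3. The highest with it was 163. The peaks at W03F9.1 and W03F9.2, from which the word was taken, had 399 and 174.

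Of its 8-letter parts, GCAAACAC was the most frequent, at 164 of the 2380 other peaks (6.89%), in 27 of 4778 windows 500 bp away (0.565%) and in 288 of 19973 start windows (1.44%). In a search that left out the region, GCAAACAC ranked 6 among all 8-letter words by the difference between summit windows and windows 500 bp away. The word in place 1 was AGACGCAG, at 262 of the 2380 other summits and 0.798% of windows away, and none of the region's 9 peaks held it. GACGCAGA, in place 3, overlaps it and was found at 9.75% of other summits against 0.84% away. It was in 1 of the 9 peaks, that at the cgp-1 start. AGAGAAAA, in place 5, was in the peak at -924 from cgp-1, and was found at 9.37% of other summits against 2.98% away. The other 6 of the first 10 words were in none of the 9. A match of letters is a description of these windows, and says nothing of which protein sits there.

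The base composition of the 9 windows was low in G and C. Their share of G and C had a median of 31.1%, from 23.8% to 49.7%, where the other nuclear summits had a median of 41.7% with quartiles at 36.4% and 47.0%. The windows at the starts of picd-1, cgp-1, W03F9.1 and W03F9.2 had 49.7%, 43.7%, 38.4% and 37.1%. The other 5 windows lay between 23.8% and 31.1%, below the lower quartile of summits elsewhere. The windows 500 bp from a summit had a median of 36.4%.

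Counting optimal-set summits from 1 kb before to 1 kb after a gene, cgp-1 had 4, W03F9.1 had 4, picd-1 had 3, W03F9.2 had 2 and sftb-2 had 1, with summits between neighbours counted for each. Outside the region mnk-1 had the most, 5, and 8 more genes had 4. Those named by the count and then by length were lgg-2, Y43F8B.2, Y111B2A.12 and zfp-1. Of the 9 genes outside with at least 4, lgg-2 was the only one of 5 kb or less, at 1708 bp, against 4588 bp for cgp-1 and 2709 bp for W03F9.1. These genes were put in order by that count, with ties by length from the shortest, and by no other measure.

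A list of genes of the SF3b splicing complex, to which sftb-2 belongs, and one of the Wnt pathway, whose Axin protein PRY-1 gave picd-1 its name, were set beside the members. Of the 6 SF3b genes found under their symbols in the annotation, 3 had an optimal-set summit at the start, namely sftb-2 with 174, sftb-6 with 90.7 and sftb-1 with 81.7, beside 11.7% of all protein-coding genes. Of these, sftb-2 was chosen with its peak known. The start entry of teg-4 had 35.1 in the pooled list, below the threshold. Of the 6 Wnt pathway genes pry-1, apr-1, gsk-3, kin-19, bar-1 and pop-1, 0 had one, and with 6 genes a share of 0 cannot be set apart from the 11.7% of all genes. The highest pooled value at their starts was 45.3 at pop-1, which encodes the TCF factor of the pathway, and that at pry-1 was 26.3.

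The gene unc-119, whose mutant allele the strain carries, lies on chromosome III. From 1 kb before to 1 kb after it, the optimal set had 0 summits, and the pooled list had 5 with signals from 14.1 to 32.1 and a median of 18.7. Replicate 1 had 4, up to 14.4, and replicate 2 had 5, up to 17.7. The pooled values lie below the 9 optimal-set peaks by construction, since the optimal set is the highest-signal part of the pooled list. They overlap those of the region's weaker entries.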

How the data were processed

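The submitters deposited peak lists for 2 biological replicates of 1 group, in the builds ce10 and ce11. Per the accompanying notes, the peaks were derived from alignments and a control. Which aligner and caller were used is not given in the sources used here. Column values used were the signal of each entry as deposited by the authors, and the −log10 q-value deposited by the authors. The latter took its highest value at 12 of the region's 32 pooled entries, which include the 9 optimal-set peaks. It did so at 3196 of all 30000 pooled entries, and no result rests on it. Read depth per sample is unknown, so intervals cover counting over entries only. Replicates are separate biological samples per the labels.

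The optimal set was identical to the highest-signal entries of the pooled list. A summit is the start of an entry plus the deposited offset, and coordinates are 1-based. Gene limits came from Ensembl release 115 of WBcel235 and sequences from the RefSeq genome of the same assembly. No coordinate was converted between builds. Each entry was given to a gene part by its summit, dense blocks joined entries at most 1000 bp apart, and replicate entries were matched by an overlap of at least 1 bp, taking the one of highest signal.

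Named genes are the 5 members, the other protein-coding genes within 20 kb of the region, unc-119, the 5 genes outside with the most summits, and the genes of the SF3b and Wnt lists. The members and lists were chosen with earlier results of these data known. Alternatives changed the start window, the largest gap, the list, the share of the optimal set kept and the replicates. The counting steps were tested on simulated data. Python 3.11.15, pandas 2.3.3, NumPy 2.4.6, SciPy 1.17.1 and Matplotlib 3.10.9 were used.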

Additional observations from a re-analysis of the deposited data

How the results depend on the processing

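Of 33 alternative values over 10 results, 27 stayed within 1.5 times the count or, for block lengths and log2 ratios, within a spread. For log2 ratios that spread was the SD over the peaks. For block lengths it was the SD of the block lengths of the 2 replicates, 1805 bp in ce11, which are also among the alternatives. Only length was compared, so a block at another place could count as unchanged. Only the log2 ratios could change sign, and they did not. The number of optimal-set summits in the region was 6 among the 1204 peaks of highest signal, 9 by any overlap, and 8 to 10 when each replicate was left out. The number of members with a summit at the start was 5 under every start window and list tried. With neither starts nor ends as classes, 2 of the 9 summits were in introns and 6 were intergenic, in place of 1 and 0, because those classes take summits first. The dense block of 1216 bp grew to 5379 bp with a largest gap of 2000 bp and to 11280 bp with all pooled entries, the latter chosen after seeing the data, and each of these joins more entries by construction. Leaving out each replicate gave 1554 to 4107 bp in ce11 and 1554 to 4093 bp in ce10. Among the 1204 peaks of highest signal the block was another one, of 2 peaks over 1121 bp from the W03F9.1 intron to its start, so its edges hold only for the full set. The median log2 ratio of the replicates was 0.66 with reciprocal overlap, which matched 4 of the 9 peaks, and 0.47 with the nearest summit. No paired analysis was possible because there is 1 group. Limits are the unknown depth, the 2 replicates, the control not analysed here, and summits that lie at the middle of every 350-bp entry of the region.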
